A study of Papio anubis with 767 samples.

Results

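The suprachiasmatic nuclei (SCN) were compared with other nuclei of the same hypothalamus in the olive baboon (Papio anubis, given in the labels as Papio anubis hamadryas). The members were all libraries labelled as SCN, 12 of the 767 libraries of the series, 1 from each animal. They were set against the supraoptic nucleus (SON), the paraventricular nuclei (PVN), the arcuate nucleus (ARC) and the dorsomedial (DMH), ventromedial (VMH) and lateral (LH) hypothalamus, with 12 libraries each. The preoptic area, with 12 libraries, was used as a further neighbour. All animals were untreated males of 5 to 6 years kept with lights on for 12 h and off for 12 h, fed at set times of day, and 1 animal was killed every 2 h from ZT0 (lights on) to ZT22. The animals were perfused with an ice-cold buffered solution and the nuclei were punched from chilled brain sections, so a punch may hold neighbouring tissue. Every tissue of a given ZT comes from the same animal, and the 12 animals were the replicates. Each time is also 1 animal, so time of day and animal cannot be told apart. In bulk tissue, fewer cells of a type and less RNA per cell cannot be told apart either.

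The SCN are a pair of small cell groups above the optic chiasm that hold the master circadian clock of mammals and receive light signals straight from the retina. Most of their neurons release GABA. In rodents a ventral region that receives the retinal input makes vasoactive intestinal peptide (VIP), a dorsal region makes vasopressin (AVP), and many neurons make neuromedin S (NMS). Within each cell the clock is a loop in which ARNTL and CLOCK switch on the PER and CRY genes, whose proteins then block ARNTL and CLOCK.

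PolyA-selected, stranded libraries were measured as FPKM, reads scaled to gene length and library size. The reads behind these values could be counted back, and the SCN libraries had 2777396 to 7819808 reads, against 1648816 to 10348701 in the 6 nuclei. Mitochondrial transcripts took 22.5 to 52.5% of SCN reads. The libraries fell into kinds that the labels do not mention. FTH1, a ferritin subunit made by most cells, had no read in 12 of 12 SCN libraries, in 11 PVN and 11 DMH libraries and in 12 preoptic libraries, but lacked reads in at most 1 library of SON, ARC, VMH or LH. RPL35, a ribosomal protein, had no read in 10 SCN, 10 PVN and 9 DMH libraries, against 6.06 to 484 FPKM in the libraries of the other 4 nuclei. The cause of this split was not tested, and each comparison is therefore also given against PVN and DMH alone, a reference chosen after these values were seen.

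Some libraries did not match their label well. The SCN library of ZT14 had 3.10 FPKM of NMS and 1.04 FPKM of VIP, the lowest of the 12 for both, and its nearest library in the hypothalamus was the mammillary body of ZT0 (correlation over genes 0.946, against 0.869 with its nearest SCN library). Its summed level of anterior pituitary genes was 515.9 FPKM, against 0 to 6.78 FPKM in the other SCN libraries, and its summed neuron genes were 534.7 FPKM, against 1475 to 3149 FPKM. The SCN library of ZT20 had 6.64 FPKM of NMS and was nearest to the preoptic area of the same animal (0.945, against 0.938 with its nearest SCN library); those of ZT0 and ZT6 were also nearest to a preoptic library, that of ZT0, but as near to an SCN library (0.972 for both). Among the references, SON libraries held 1427 to 122400 FPKM of summed meninges and fibroblast genes, against 175.9 to 1468 FPKM in the SCN without ZT14, and the PVN library of ZT10 had 26080 FPKM of PMCH, a peptide of the lateral hypothalamus. The counts by gene list that follow are also given without the animal of ZT14, or those of ZT14 and ZT20, where they change.

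The label was checked on 4 marker genes, all detected in all 12 SCN libraries. NMS, the peptide that marks many SCN neurons in rodents, had 3.10, 44.4 and 93.2 FPKM as the lowest, median and highest value in the SCN. The PVN and DMH libraries had 0.405, 4.19 and 27.0 FPKM, and those of the other 4 nuclei 0, 2.71 and 11.2 FPKM. In 10 of 12 SCN libraries NMS lay above every PVN and DMH library, the exceptions being ZT14 and ZT20. VIP, the peptide of light-receiving SCN neurons, had 1.04, 23.7 and 79.8 FPKM in the SCN, 0, 2.57 and 21.7 FPKM in PVN and DMH, and 0, 0.796 and 24.7 FPKM in the other 4. Here the groups overlapped more, and 6 SCN libraries exceeded all PVN and DMH libraries. RGS16, which shortens signalling of G protein-coupled receptors, had 1.66, 14.8 and 47.5 FPKM in the SCN and 1.04, 3.42 and 123.9 FPKM in PVN and DMH. The highest RGS16 value belonged to the DMH library of ZT20, so the groups overlapped over the whole SCN range. SIX6, a homeodomain factor needed to form the mouse SCN, had 0.233, 2.84 and 9.73 FPKM in the SCN and 0, 0.326 and 3.17 FPKM in PVN and DMH, but a mean of 22.4 FPKM in ARC.

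**Figure D1:**
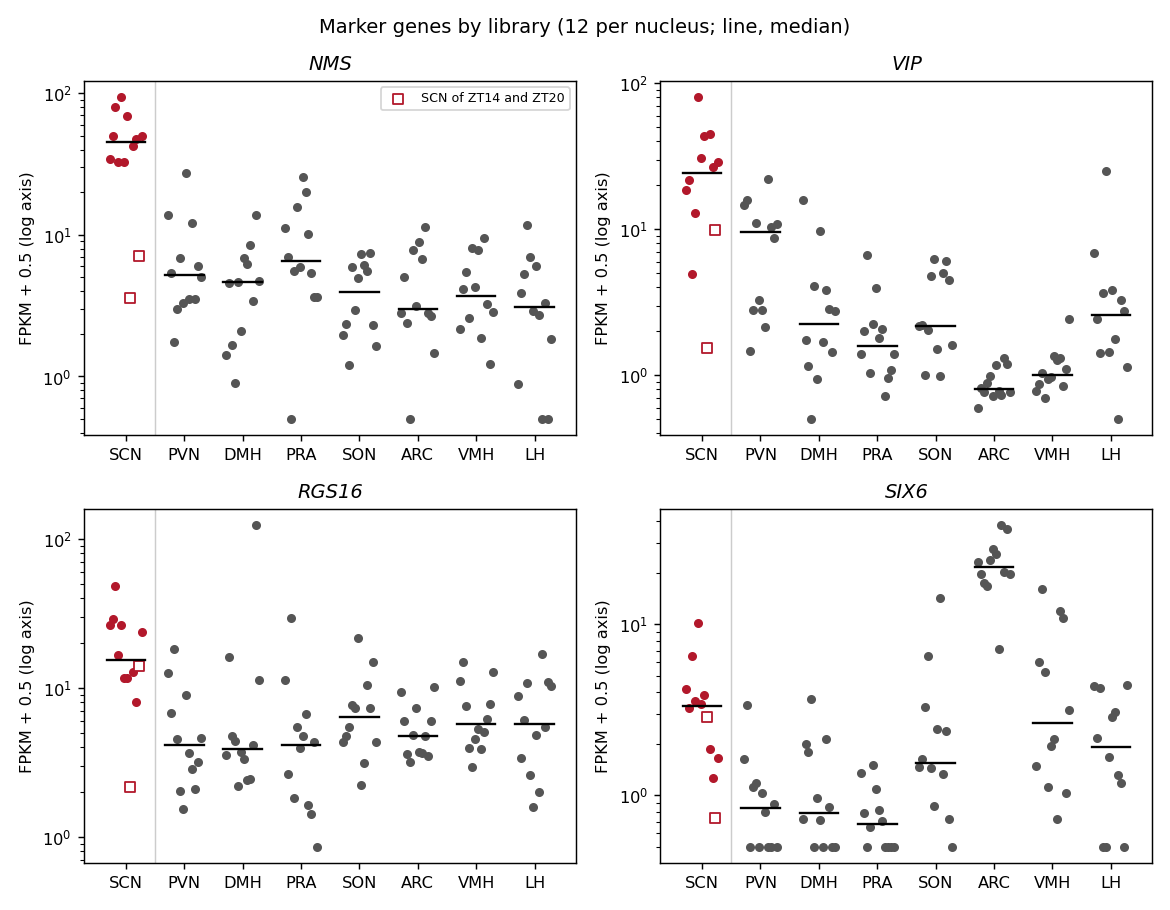
FPKM plus 0.5 (log axis) of the 4 marker genes in each of 12 libraries per nucleus (points; line, median), with the SCN first and its ZT14 and ZT20 libraries as open squares. NMS and VIP have their highest medians in the SCN, 44.4 and 23.7 FPKM, while SIX6 is highest in ARC.

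The test for every gene was limma on the 12 per-animal differences of log2(FPKM + 0.5), with Benjamini-Hochberg adjustment over the 13549 genes tested. Against the mean of the 6 nuclei, 3402 genes (25.1%) were higher and 4643 (34.3%) lower in the SCN, or 59.4% in either direction. Higher genes made up 42.3% of these calls, and 61.9% with quantile scaling, which moved the median of all genes to 0.154 log2 units in place of -0.057. Against the mean of PVN and DMH, 221 genes (1.63%) were higher and 113 (0.834%) lower, or 2.47% in either direction, and against SON, ARC, VMH and LH, 3662 (27%) were higher and 5181 (38.2%) lower. Of the 4 markers, 3 were higher than in the 6 nuclei and all 4 higher than in PVN and DMH, with and without ZT14 and ZT20. The number of calls varied with the reference: single nuclei gave 998 higher and 223 lower genes for PVN, and 5112 and 4353 for LH. Against the preoptic area 516 genes (3.81%) were higher and 594 (4.38%) lower, and all 4 markers were among the higher ones.

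**Figure D2:**
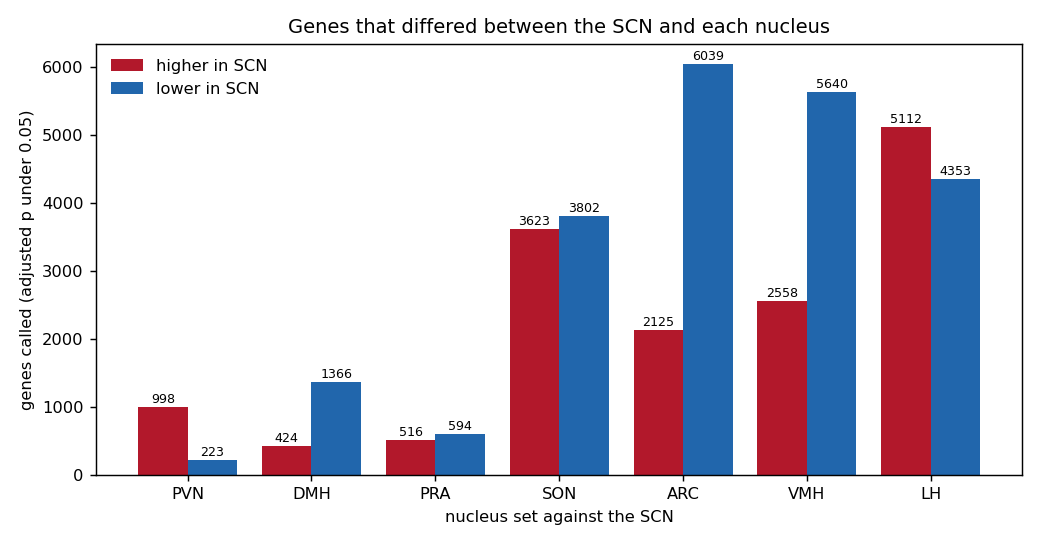
Number of genes higher (red) or lower (blue) in the SCN than in each single nucleus, of 13549 tested with limma at an adjusted p of 0.05 over 12 animals. PVN, DMH and the preoptic area (PRA), whose libraries share the missing FTH1 reads, gave between 223 and 1366 calls in a direction, and the other 4 nuclei between 2125 and 6039.

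Paired within animals, NMS was higher in the SCN than in the 6 nuclei by 3.21 ± 0.34 log2 units (SE; limma adjusted p = 1.27e-06; higher in 11 of 12 animals) and than in PVN and DMH by 2.89 ± 0.45 (adjusted p = 0.00576; 10 of 12). VIP was higher by 3.09 ± 0.31 (adjusted p = 6.37e-07; 12 of 12) and by 2.22 ± 0.33 (adjusted p = 0.00428; 11 of 12). RGS16 was higher by 1.46 ± 0.25 and 1.60 ± 0.30 (limma adjusted p = 1.18e-04 and 0.0147). SIX6 did not pass against the 6 nuclei (0.28 ± 0.26, limma adjusted p = 0.368), which include ARC, and was higher than in PVN and DMH by 1.66 ± 0.28 (adjusted p = 0.00898; 12 of 12). Exact sign permutations of the 12 differences against PVN and DMH, two-sided and unadjusted, gave p = 0.00195 for NMS, 0.00146 for VIP, 0.00195 for RGS16 and 0.000488 for SIX6, the last being the smallest they can give. The call of NMS and of VIP against PVN and DMH depended on how limma modelled the variance: with its trend over the mean difference in place of the mean level, adjusted p was 0.381 for NMS and 0.0784 for VIP.

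Of 13 SCN peptide genes tested, 5 were higher and 4 lower than in the 6 nuclei (median difference 0.21 log2 units, against -0.057 over all genes). Over all genes 59.4% passed there, 25.1% higher and 34.3% lower. Against PVN and DMH 3 peptide genes were higher and 2 lower (median -0.20, against 0.066 over all genes), where 1.63% and 0.834% of all genes were. Without ZT14, and without ZT14 and ZT20, 5 were lower than in the 6 nuclei. NMS, VIP and AVP were the 3 higher ones against PVN and DMH. AVP had 2.77, 417 and 1910 FPKM in the SCN, 0.196, 22.4 and 42620 FPKM in PVN and DMH, and 5.95, 212 and 138200 FPKM in the other 4. In both SON and PVN, AVP is the hormone of large neurons. Its highest values all lay outside the SCN, and the order depended on the average taken. By mean log2 values AVP was higher than in the 6 nuclei by 1.38 ± 0.41 (limma adjusted p = 0.00923) and than in PVN and DMH by 3.19 ± 0.60 (adjusted p = 0.0149, lost in 5 of 25 alternatives with adjusted p up to 0.6), whereas against the log2 of the 6 nuclei's mean FPKM the difference was -1.23. TAC1, the substance P precursor, had 21.5, 58.8 and 76.1 FPKM in the SCN and 51.3, 188 and 626 FPKM in PVN and DMH, a difference of -1.64 ± 0.26 log2 units (limma adjusted p = 0.00676; lower in 12 of 12 animals). CALCB, a calcitonin gene-related peptide, had 0, 0.676 and 3.89 FPKM in the SCN and 1.25, 4.92 and 8.44 FPKM in PVN and DMH, a difference of -2.13 ± 0.29 (limma adjusted p = 0.00279), and in 9 SCN libraries it lay below every PVN and DMH library. GRP, a peptide of the retinal input zone in rodents, had 0.612, 2.03 and 10 FPKM in the SCN and 0, 2.15 and 11.7 FPKM in PVN and DMH, and passed neither test. PROK2, a further SCN output peptide in rodents, was not analysed here.

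Among 10 receptor genes tested, 7 were higher and 0 lower than in the 6 nuclei (median 0.64 log2 units), where 25.1% and 34.3% of all genes were. Against PVN and DMH 5 were higher and 0 lower (median 0.53), where 1.63% and 0.834% of all genes were. Without ZT14 and ZT20 these were 8 and 4 higher genes. Those 5 were VIPR2, AVPR1A, PROKR1, GPR176 and ADCYAP1R1. VIPR2, the receptor through which VIP keeps rodent SCN neurons in step, had 0.252, 1.34 and 5.595 FPKM in the SCN, 0, 0.195 and 1.21 FPKM in PVN and DMH, and 0, 0.765 and 10.9 FPKM in the other 4. In 7 SCN libraries VIPR2 exceeded every PVN and DMH library, and it was higher by 1.27 ± 0.22 log2 units than in PVN and DMH (limma adjusted p = 0.0109; 12 of 12 animals). AVPR1A, a vasopressin receptor, had 0.975, 2.65 and 7.29 FPKM in the SCN and 0.396, 0.783 and 5.23 FPKM in PVN and DMH, with 2 SCN libraries above that range. It was higher than in PVN and DMH by 1.20 ± 0.24 (limma adjusted p = 0.0233, lost in 5 of 24 alternatives) and than in the preoptic area by 1.86 (adjusted p = 0.00297). PROKR1, a prokineticin receptor, was higher by 0.80 ± 0.14 (adjusted p = 0.0122), GPR176, an orphan receptor that sets the pace of the mouse SCN, by 0.80 ± 0.18 (adjusted p = 0.0351), and ADCYAP1R1, the receptor for the PACAP of retinal fibres, by 0.51 ± 0.13 (adjusted p = 0.0486). The call of ADCYAP1R1 was lost in 20 of 25 alternatives, among them leaving out ZT14 and ZT20 (limma adjusted p = 0.0756), and that of GPR176 in 12 of 24 (adjusted p up to 0.29). HTR7, DRD1, HTR5A, NPY5R and CALCR did not pass in limma against PVN and DMH. Unadjusted exact sign permutations gave p = 0.00488 for CALCR and 0.0366 for DRD1. Over the alternatives CALCR differed by -0.996 to -0.657 log2 units and DRD1 by 0.392 to 0.919.

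Of 15 transcription factor genes tested, 8 were higher and 2 lower than in the 6 nuclei (median 0.60), where 25.1% and 34.3% of all genes were. Against PVN and DMH 7 were higher and 0 lower (median 0.80), where 1.63% and 0.834% of all genes were. Without ZT14 these were 10 and 8 higher genes, and without ZT14 and ZT20 9 and 8. SIX3, which like SIX6 patterns the ventral forebrain, had 0.961, 8.23 and 23.7 FPKM in the SCN, 0, 1.41 and 4.43 FPKM in PVN and DMH, and up to 79.8 FPKM in the other 4. In 11 of 12 SCN libraries SIX3 lay above every PVN and DMH library, with a difference of 2.08 ± 0.27 log2 units (limma adjusted p = 0.0022). Against the 6 nuclei SIX3 was higher by 0.81 ± 0.22 (adjusted p = 0.00535), but against the log2 of their mean FPKM the difference was -0.52. ARC alone held 44.6 FPKM on average. VAX1, a factor of the optic stalk and ventral midline, did not pass against the 6 nuclei in limma, though it did in 4 of 26 alternatives. It was higher than in PVN and DMH by 1.29 ± 0.22 (limma adjusted p = 0.0109), with 6 SCN libraries above their range. DLX2 and DLX5, which drive GABA neuron development, were higher by 1.17 ± 0.26 and 1.13 ± 0.21 (adjusted p = 0.0337, lost in 12 of 24 alternatives, and 0.0143), while DLX1, at 2.84, 58.5 and 73.3 FPKM in the SCN and 6.49, 25.4 and 38.0 FPKM in PVN and DMH, differed by 1.06 ± 0.33 and did not pass (adjusted p = 0.0935). DLX1 passed in 2 of 25 alternatives. ZFHX3 and ZFHX4, zinc finger homeobox factors of which the first sets the period of the mouse clock, were higher by 0.66 ± 0.10 and 0.63 ± 0.13 (adjusted p = 0.00428, and 0.0255, lost in 5 of 24 alternatives). LHX1, which couples SCN neurons in mice, had 0.125, 6.19 and 11.0 FPKM in the SCN and 0.807, 3.84 and 16.1 FPKM in PVN and DMH and passed neither test. RAX and NKX2-2 were the 2 lower genes against the 6 nuclei, by -0.74 ± 0.14 and -0.96 ± 0.16 (limma adjusted p = 3.76e-04 and 1.14e-04), and did not pass against PVN and DMH.

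**Figure D3:**
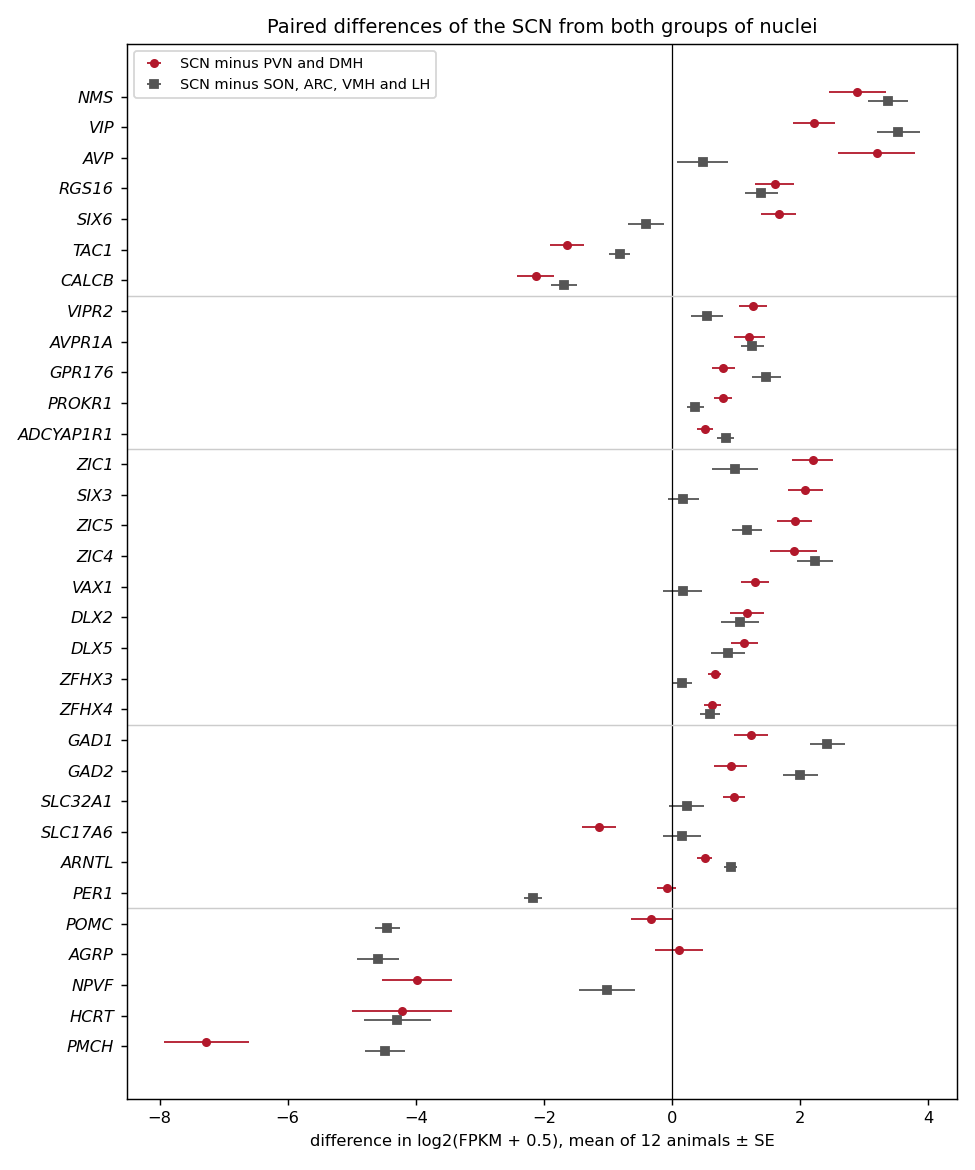
Mean difference over 12 animals in log2(FPKM + 0.5), with its SE, of the SCN from PVN and DMH (red circles) and from SON, ARC, VMH and LH (grey squares), grouped by role. NMS, VIP and RGS16 lie to the right of 0 and HCRT and PMCH to the left against both, while SIX6 lies to the right against PVN and DMH and to the left, at -0.41, against the other 4.

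Of 9 transmitter genes tested, 3 were higher and 2 lower than in the 6 nuclei (median -0.281 log2 units), where 25.1% and 34.3% of all genes were. Against PVN and DMH 2 were higher and 1 lower, where 1.63% and 0.834% of all genes were. Without ZT14, and without ZT14 and ZT20, the counts were 4 and 2 against the 6 nuclei and 3 and 1 against PVN and DMH. GAD1, the main enzyme of GABA synthesis, had 24.4, 77.8 and 103 FPKM in the SCN, 2.89, 38.6 and 68.6 FPKM in PVN and DMH, and 1.34, 15.7 and 92.7 FPKM in the other 4. In 9 SCN libraries GAD1 exceeded every PVN and DMH library, and the difference was 1.23 ± 0.27 log2 units (limma adjusted p = 0.0297; 11 of 12 animals), or 1.47 without ZT14 (adjusted p = 0.00106); the call was lost in 10 of 25 alternatives (adjusted p up to 0.0744). SLC32A1, the vesicular GABA transporter, was higher than in PVN and DMH by 0.96 ± 0.17 (adjusted p = 0.013). GAD2, the second GABA enzyme, differed by 0.91 ± 0.26 and did not pass (adjusted p = 0.0755), though it did in 3 of 25 alternatives. SLC17A6, the vesicular glutamate transporter of hypothalamic neurons, had 2.48, 28.6 and 49.2 FPKM in the SCN and 27.2, 48.2 and 227 FPKM in PVN and DMH, with 5 SCN libraries below that range, and was lower in 12 of 12 animals by -1.15 ± 0.26 (limma adjusted p = 0.0376). Against the 6 nuclei, unadjusted exact sign permutations gave p = 0.491 for SLC17A6 and 0.0913 for SLC32A1. Against the preoptic area, itself rich in GABA neurons, GAD1 and SLC32A1 differed by 0.46 and -0.23 and did not pass (adjusted p = 0.424 and 0.624). None of 10 general neuron genes passed against PVN and DMH (median -0.10). Of these, 6 of 10 were higher than in the 6 nuclei (median 0.60), and 9 of 10 without ZT14 or without ZT14 and ZT20. Summed neuron genes had a median of 2276 FPKM in the SCN without ZT14 and 406.2 FPKM in SON (160.7 to 1784). The other medians were 1140 FPKM in ARC, 1694 in VMH, 2144 in PVN, 2346 in DMH and 3363 in LH.

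Genes of neighbouring nuclei went different ways. Over all genes, 25.1% were higher and 34.3% lower than in the 6 nuclei, and 1.63% and 0.834% than in PVN and DMH. Of 8 supraoptic and paraventricular genes tested, 4 were higher and 0 lower than in the 6 nuclei (5 and 0 without ZT14), and 1, AVP, was higher than in PVN and DMH. TRH, the precursor of thyrotropin-releasing hormone, averaged 110.6 ± 48.9 FPKM in the SCN (SD, n = 12). Its means were 148.3 FPKM in PVN, 149.8 in LH and 5.74 to 58.3 in the other 4 nuclei. By mean log2 values TRH was higher than in the 6 nuclei by 1.53 ± 0.46 log2 units (limma adjusted p = 0.00983). Against PVN and DMH it differed by 0.12 ± 0.43 and did not pass (adjusted p = 0.881). OXT, the oxytocin precursor, was higher than in the 6 nuclei by 1.49 ± 0.45 (adjusted p = 0.00982). Of 9 genes of lateral and dorsomedial cells tested, 4 were lower and 1 higher than in PVN and DMH (median -0.96 log2 units). PMCH, the precursor of melanin-concentrating hormone, had 1.89, 7.27 and 12.3 FPKM in the SCN, 6.89, 2906 and 26080 FPKM in PVN and DMH, and 0.624, 131 and 11420 FPKM in the other 4. It was lower in all 12 animals, by -7.27 ± 0.66 against PVN and DMH (limma adjusted p = 1.5e-04; 0.877 with the variance trend over the mean difference; exact sign permutation, two-sided, p = 0.000488), although 8 SCN libraries overlapped the lowest PVN and DMH values. HCRT, the precursor of the wake-promoting orexins, had 0, 0.938 and 10.2 FPKM in the SCN and 0.573, 34.7 and 1511 FPKM in PVN and DMH, with 6 SCN libraries below that range and a difference of -4.22 ± 0.78 (limma adjusted p = 0.0143). NPVF, the precursor of RFamide peptides of the DMH, differed by -3.98 ± 0.54 (limma adjusted p = 0.00279). LHX8, a ventral forebrain factor, was the higher gene, by 0.93 ± 0.19 (adjusted p = 0.0254), and was lower than in the preoptic area by -3.18 (adjusted p = 0.00297). Of 10 arcuate genes tested, 0 passed against PVN and DMH. Against the 6 nuclei 2 were higher, CARTPT, a peptide that lowers feeding, and TAC3, the neurokinin B precursor, by 1.28 ± 0.26 and 0.76 ± 0.19 (limma adjusted p = 6.36e-04 and 0.0026). The 5 lower ones (6 without ZT14) included POMC, the precursor of melanocortins, and AGRP, their antagonist, which averaged 1.20 and 1.34 FPKM in the SCN against 285 and 497 FPKM in ARC.

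Of 22 core clock genes tested, 8 were higher and 4 lower than in the 6 nuclei (median 0.19), where 59.4% of all genes passed. Against PVN and DMH 2 were higher and 0 lower (median 0.20), where 2.47% of all genes passed. Without ZT14 there were 6 higher and 4 lower against the 6 nuclei and 1 higher against PVN and DMH, and without ZT14 and ZT20 there were 9, 4 and 0. ARNTL, the activator of the clock loop, had 11.2, 16.5 and 35.4 FPKM in the SCN, 2.30, 12.4 and 32.1 FPKM in PVN and DMH, and 0.239, 11.2 and 27.99 FPKM in the other 4. The ranges overlapped almost wholly, but within animals ARNTL was higher than the 6 nuclei in 12 of 12 by 0.78 ± 0.09 log2 units (limma adjusted p = 2.46e-06) and than PVN and DMH by 0.51 ± 0.11 (adjusted p = 0.0351; 0.0701 without ZT14 and ZT20, and lost in 14 of 25 alternatives). CSNK1E, a kinase that marks PER proteins for breakdown, was the other call against PVN and DMH (0.43 ± 0.10, limma adjusted p = 0.0433) and lost it in 19 of 25 alternatives, without ZT14 among them (adjusted p = 0.0538). PER1 had 0.567, 2.33 and 6.50 FPKM in the SCN, 0.364, 2.42 and 14.1 FPKM in PVN and DMH, and 4.76, 13.1 and 43.3 FPKM in the other 4. It was lower than in the 6 nuclei by -1.48 ± 0.11 (limma adjusted p = 5.53e-08; 12 of 12 animals) and did not differ detectably from PVN and DMH (-0.09 ± 0.15, adjusted p = 0.757), whose libraries share the missing FTH1 reads with the SCN.

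Genes that passed in the same direction against PVN and DMH and against the other 4 nuclei were counted apart. There were 110 such higher genes (0.812%) and 56 lower ones (0.413%); without ZT14 the counts were 155 and 40, of which 85 and 35 were shared with the full set, and without ZT14 and ZT20 they were 98 and 33, of which 57 and 27 were shared. A further 30 genes passed in opposite directions against PVN and DMH and against the other 4. Tested against each nucleus in turn, 11 genes (0.0812%) were higher than in all 6 and 2 (0.0148%) were lower in all 6. The higher ones included NMS, VIP, AVPR1A, EGFL6, ADORA2B, CLIC5, PLCL2 and PTPRK, and the lower ones were HCRT and EYA1. Those outside the gene lists are named for passing this test, after their values were seen. Against the preoptic area NMS, VIP, AVPR1A and PTPRK were higher too, while EGFL6 (1.03), ADORA2B (0.14), CLIC5 (0.75), PLCL2 (0.61), EYA1 (-0.39) and HCRT (1.41) did not pass (limma adjusted p = 0.192, 0.761, 0.146, 0.055, 0.15 and 0.126). CLIC5, a chloride channel family protein, had 0.603, 1.68 and 4.80 FPKM in the SCN and 0, 0.469 and 1.11 FPKM in PVN and DMH, with 10 SCN libraries above that range and a difference from the 6 nuclei of 1.21 ± 0.21 (limma adjusted p = 1.74e-04). EGFL6, a secreted matrix protein, was higher by 1.52 ± 0.24 (adjusted p = 6.76e-05), ADORA2B, an adenosine receptor, by 1.25 ± 0.14 (adjusted p = 2.2e-06), PLCL2, a phospholipase C-like protein, by 1.05 ± 0.12 (adjusted p = 2.84e-06) and PTPRK, a receptor phosphatase, by 1.00 ± 0.11 (adjusted p = 1.87e-06). EYA1, a transcriptional co-activator, had 1.13, 1.89 and 2.76 FPKM in the SCN, 1.57, 5.12 and 14.1 FPKM in PVN and DMH, and 2.21, 6.39 and 16.5 FPKM in the other 4, and was lower in all 12 animals by -1.45 ± 0.10 (limma adjusted p = 2.63e-08).

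Ranked by size alone, the 15 largest higher genes against the 6 nuclei (mean of at least 5 FPKM, same sign in at least 11 of 12 animals) were led by NMS, VIP, NDUFA1, SCGN, ZIC4 and GAD1. NDUFA1, a subunit of respiratory complex I, had 51.1, 96.4 and 163 FPKM in the SCN, 62.2, 107 and 366 FPKM in PVN and DMH, and 0, 4.45 and 23.5 FPKM in the other 4. All but 1 SCN library lay within the range of PVN and DMH, and all 12 lay above all libraries of the other 4. NDUFA1 was higher by 2.89 ± 0.15 log2 units against the 6 nuclei (limma adjusted p = 9.42e-10) and differed by -0.26 ± 0.11 against PVN and DMH (adjusted p = 0.173). SCGN, the calcium-binding protein secretagogin, had 2.70, 23.6 and 59.7 FPKM in the SCN and 0, 5.92 and 191 FPKM in PVN and DMH, and was higher than in the 6 nuclei by 2.34 ± 0.32 (limma adjusted p = 1.49e-05), with 0.92 ± 0.49 against PVN and DMH (adjusted p = 0.268). ZIC4, a zinc finger factor of the dorsal midline, passed against both, by 1.89 ± 0.37 against PVN and DMH (limma adjusted p = 0.019, lost in 4 of 25 alternatives), as did GRIA1, a glutamate receptor subunit, by 1.20 ± 0.25 (adjusted p = 0.0263, lost in 9 of 25 alternatives). AGTR1, GAD2, ELAVL4, CD200, DLX1 and TRH were among the 15 and did not pass against PVN and DMH. Of these, AGTR1, GAD2 and DLX1 passed there in 3, 3 and 2 of 25 alternatives. Of the 15 largest lower genes, 13 did not pass against PVN and DMH, among them APOA1, the main protein of high-density lipoprotein, with 0 to 0.833 FPKM in the SCN and 12.2 to 1550 FPKM in the other 4 nuclei. PMCH and HCRT were the 2 that did.

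Within the SCN, the 6 libraries of ZT0 to ZT10 were compared with the 6 of ZT12 to ZT22 by limma over 12503 genes. At an adjusted p of 0.05, 2034 genes (16.3%) were higher at ZT0 to ZT10 and 209 (1.67%) were lower, or 17.9% in either direction, and the median over all genes was 0.135 log2 units. Genes higher at ZT0 to ZT10 made up 90.7% of the calls, and 59.2% with quantile scaling, where that median was -0.069. The number of lower genes varied more than that of higher ones: it was 77 without ZT2 or without ZT10, 464 without ZT14 and 766 with quantile scaling. Without ZT14 and ZT20, 2660 genes were higher and 595 lower. The FPKM values of the phases did not overlap for 1201 genes (9.61%). Of 21 core clock genes tested, 5 were higher at ZT0 to ZT10 and 0 lower (median 0.33), against 7 and 0 without ZT14, and 9 and 1 without ZT14 and ZT20. PER1, the light-induced repressor of the loop, had 2.32, 4.05 and 6.50 FPKM at ZT0 to ZT10 and 0.567, 1.56 and 2.35 FPKM at ZT12 to ZT22, with an overlap only between 2.32 at ZT10 and 2.35 at ZT20. The difference was 1.32 ± 0.28 log2 units (limma adjusted p = 0.00678; exact permutation over 924 splits, two-sided and unadjusted, p = 0.00433). TEF, a factor that binds the same promoter elements as DBP, had 7.32, 13.97 and 18.5 FPKM at ZT0 to ZT10 and 3.51, 4.74 and 5.65 FPKM at ZT12 to ZT22. Its phases did not overlap and differed by 1.34 ± 0.21 (limma adjusted p = 0.00147). CSNK1E had 20.7, 23.2 and 27.6 FPKM at ZT0 to ZT10 and 10.1, 11.1 and 12.1 FPKM at ZT12 to ZT22, a gap with no intermediate library and a difference of 1.08 ± 0.12 (limma adjusted p = 2.55e-04). CRY2 and CSNK1D, a repressor and a second PER kinase, passed with 0.45 ± 0.14 and 0.58 ± 0.18 (limma adjusted p = 0.0428 and 0.0378), calls that were lost in 13 and 12 of 24 alternatives.

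ARNTL ran the other way and did not pass: it had 12.3, 14.7 and 16.9 FPKM at ZT0 to ZT10 and 11.2, 22.6 and 35.4 FPKM at ZT12 to ZT22, a difference of -0.52 ± 0.23 (limma adjusted p = 0.133), with its highest value in the ZT14 library that stands apart. Without ZT14 alone ARNTL differed by -0.365 and did not pass (limma adjusted p = 0.194). Without ZT14 and ZT20 it was lower at ZT0 to ZT10 (-0.55, adjusted p = 0.015). DBP, a clock-driven activator, NR1D1, the repressor of ARNTL, and PER3 differed by 0.93 ± 0.31, 1.11 ± 0.43 and 0.91 ± 0.31 and missed the threshold (limma adjusted p = 0.0529, 0.0931 and 0.0597). Without ZT14 alone PER3 passed (adjusted p = 0.0233), while DBP and NR1D1 did not (adjusted p = 0.0505 and 0.114). All 3 passed without ZT14 and ZT20 (adjusted p = 0.0176, 0.0424 and 0.0283). PER2 and CRY1 differed by 0.29 ± 0.27 and -0.31 ± 0.16 (adjusted p = 0.508 and 0.194). AVP, which the clock drives directly in rodents, had 162, 908 and 1910 FPKM at ZT0 to ZT10 and 2.77, 207 and 720 FPKM at ZT12 to ZT22, and its difference of 2.75 ± 1.04 did not pass (limma adjusted p = 0.085). Without ZT14 alone it was 1.72 and did not pass (adjusted p = 0.0527), and without ZT14 and ZT20 it was 2.11 and passed (adjusted p = 0.0187). Of the markers SIX6 passed, with 2.74, 3.37 and 9.73 FPKM at ZT0 to ZT10 and 0.233, 1.26 and 3.38 FPKM at ZT12 to ZT22 (1.41 ± 0.40, limma adjusted p = 0.0274), while NMS, VIP and RGS16 did not (adjusted p = 0.321, 0.884 and 0.085). Of 12 peptide genes and 11 receptor genes 0 passed in either direction with all animals, and of 13 transcription factors SIX6 and VAX1 did (VAX1 1.45 ± 0.38, limma adjusted p = 0.0185). Without ZT14, 1 receptor gene was higher at ZT0 to ZT10. Without ZT14 and ZT20, 1 peptide gene (AVP) and 3 transcription factors were higher and 1 receptor gene was lower.

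**Figure D4:**
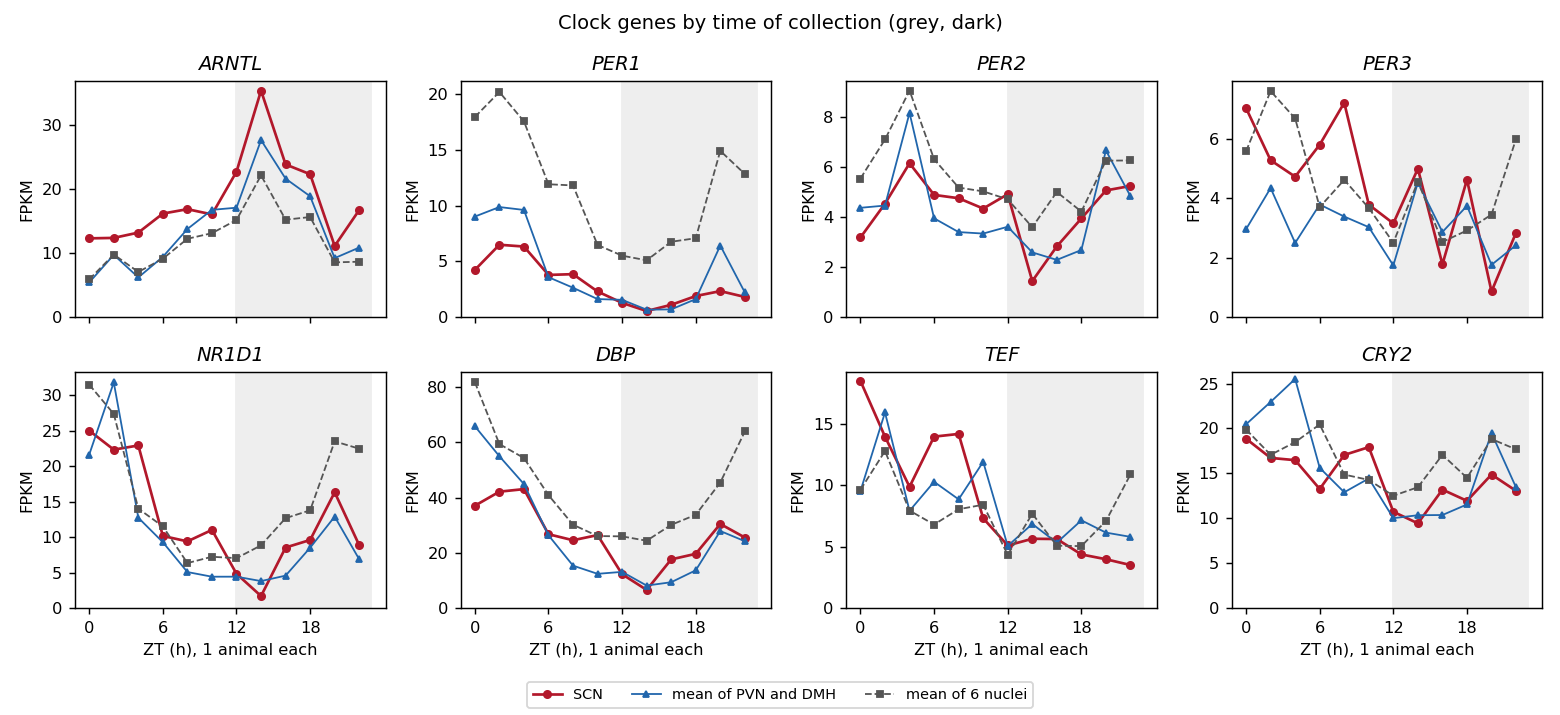
FPKM of 8 clock genes by ZT (1 animal each; dark phase shaded) in the SCN (red circles), in the mean of PVN and DMH (blue triangles) and in the mean of 6 nuclei (grey squares). SCN PER1 was highest at ZT2 (6.50 FPKM) and lowest at ZT14 (0.567 FPKM), and SCN ARNTL was highest at ZT14 (35.4 FPKM).

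Among genes with a mean of at least 5 FPKM, the 10 with the smallest p in each direction held no core clock gene. CSNK1E, given above, had the same limma adjusted p (2.55e-04) as RPS9 and FLYWCH2 among these. HOPX, an atypical homeodomain protein, had 13.4, 25.2 and 27.4 FPKM at ZT0 to ZT10 and 1.65, 2.33 and 3.69 FPKM at ZT12 to ZT22. At the borders of the phases HOPX had 25.0 FPKM at ZT0 and 13.4 at ZT10, against 1.69 at ZT22 and 3.69 at ZT12. It was higher by 2.98 ± 0.22 log2 units at ZT0 to ZT10 (limma adjusted p = 3.5e-05). RHOB, a small GTPase, FSCN1, an actin-bundling protein, and BTBD2 followed, with 2.32 ± 0.20, 2.09 ± 0.17 and 1.93 ± 0.17 (each without overlap between the phases), as did SDS, EEF2, FAM19A5, ABCA2, RPS9 and FLYWCH2. RPS9 and EEF2 have near-identical copies in mammalian genomes, so their counts are uncertain. In the other direction DYNC2LI1, a motor protein part of cilia, had 23.7, 31.2 and 33.2 FPKM at ZT0 to ZT10 and 43.9, 48.3 and 53.9 FPKM at ZT12 to ZT22, a difference of -0.68 ± 0.12 (limma adjusted p = 0.00223). PPP2R3C, CFAP70, NUCB2, ZNF451, EIF3E, CRYZL1, PPA2, ANAPC4 and SNX14 were the others with the smallest p, between -0.51 and -0.98 log2 units, all without overlap between the phases. The genes of this paragraph other than CSNK1E were picked by their p in this same comparison, so their lack of overlap is no further evidence. Over all genes, 9.61% did not overlap. With the 2 sets shifted by 2 h (ZT2 to ZT12 against the rest), 0 genes passed in limma (1612 at an unadjusted p under 0.05).

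Some glial genes were higher at ZT0 to ZT10, where 16.3% of all genes were. Summed FPKM of 11 oligodendrocyte genes had 349.3, 371.6 and 1920 as the lowest, median and highest library at ZT0 to ZT10, against 110.2, 225 and 367.7 at ZT12 to ZT22, and 3 of the 11 were higher (median 1.35 log2 units). Of 10 astrocyte genes 4 were higher (median 0.90), with sums of 2614 to 8456 FPKM at ZT0 to ZT10 and 907.1 to 3652 FPKM at ZT12 to ZT22. Of 10 microglia genes 5 were higher (median 0.69), C1QA, C1QB, C1QC, CSF1R and TYROBP, with sums of 198.2 to 318.2 and 123.6 to 262.9 FPKM. Choroid plexus sums did not overlap, at 27.81 to 247.6 FPKM for ZT0 to ZT10 and 9.505 to 20.21 FPKM for ZT12 to ZT22, and TTR, the transthyretin of that tissue, was higher by 2.49 (limma adjusted p = 0.00383). Of 10 neuron genes 1 was higher, RBFOX3, and neuron sums overlapped, at 1475 to 2441 FPKM for ZT0 to ZT10 and 534.7 to 3149 FPKM for ZT12 to ZT22. Without ZT14 the higher genes were 4 oligodendrocyte, 4 astrocyte, 5 microglia and 1 neuron gene, and without ZT14 and ZT20 they were 4, 3, 6 and 0. With the oligodendrocyte level as a covariate 477 genes differed between the phases. PER1 was among those that no longer passed, while TEF, CSNK1E and HOPX still passed. The part of these cells in the phase differences was not tested further.

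**Figure D5:**
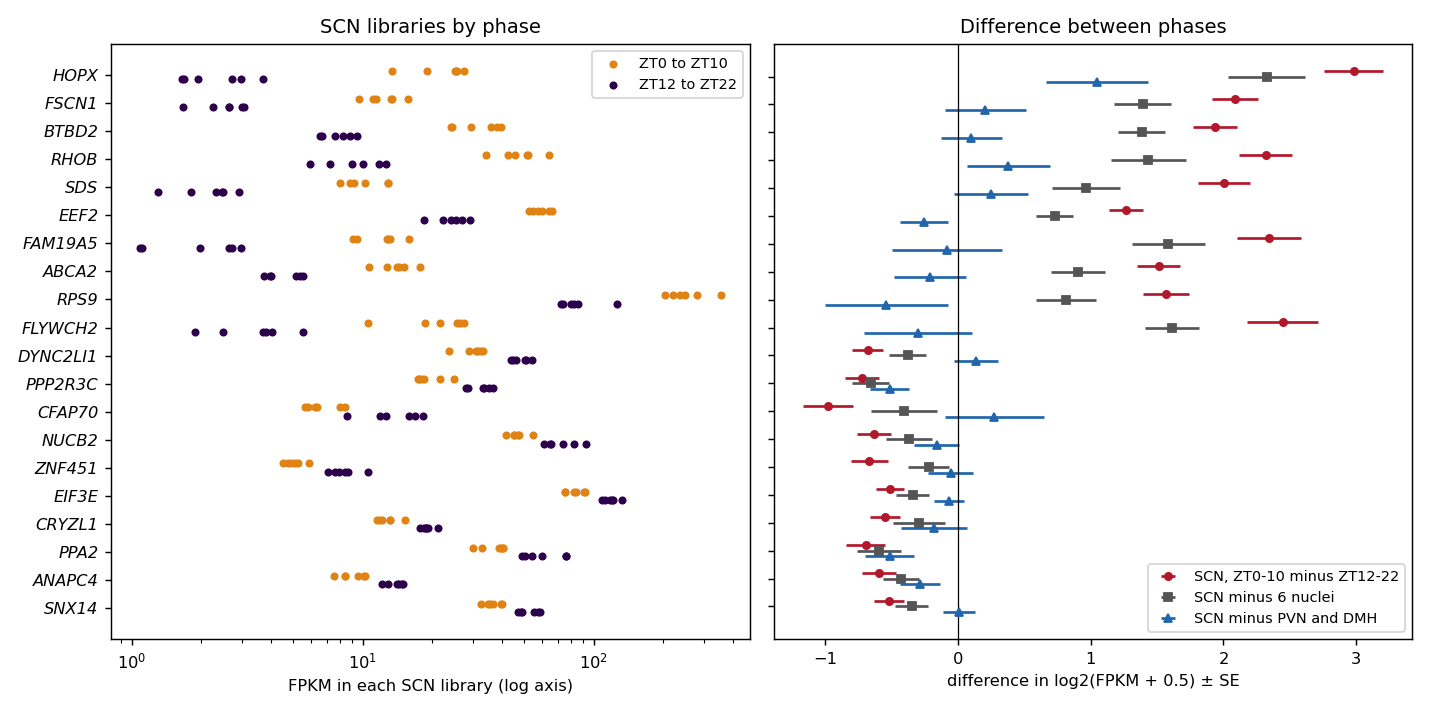
Left, FPKM (log axis) in the 6 SCN libraries of ZT0 to ZT10 (orange) and the 6 of ZT12 to ZT22 (purple) for the 10 genes with the smallest p in each direction. Right, their difference in log2(FPKM + 0.5) with its SE in the SCN (red), and how far that difference exceeds the one in the 6 nuclei (grey) and in PVN and DMH (blue), which for HOPX are 2.98, 2.33 and 1.05.

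Whether a phase difference was larger in the SCN than in the same animals' other nuclei was tested on the per-animal differences. Against the 6 nuclei 80 genes (0.59%) passed in limma, 79 of them with the larger ZT0 to ZT10 excess in the SCN, among them HOPX (2.33 log2 units more than in the 6 nuclei, adjusted p = 0.00365). Against PVN and DMH 0 genes passed in limma (747 at an unadjusted p under 0.05), with HOPX at 1.05 more (adjusted p = 0.794). None of the 22 clock genes passed against either reference. PER1, for example, differed between phases by 0.46 more in the SCN than in the 6 nuclei (limma adjusted p = 0.264) and by 0.00 more than in PVN and DMH. A 24 h cosine curve passed for 1 gene of 12503 (0.008%), FAM127C, with an amplitude of 1.12 log2 units and a peak 3.8 h after lights on (limma adjusted p = 0.0173; 2445 genes at an unadjusted p under 0.05). FAM127C belongs to a family of near-identical copies, so its counts are uncertain, and without the animal of ZT2, ZT4, ZT6, ZT8, ZT12, ZT14, ZT16 or ZT18 0 genes passed. PER1 peaked at 3.2 h with an amplitude of 1.05 and ARNTL at 13.8 h with 0.52 (limma adjusted p = 0.061 and 0.116), which did not pass.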

How the data were processed

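Per the labels' protocols, polyA RNA was made into stranded TruSeq libraries. The authors deposited 1 table of FPKM values (29202 rows). Reads had been handled with STAR, featureCounts and DESeq2, per the submitters' processing notes (versions and build not given in the sources used here). Columns were matched to samples by name: 108 were mapped and 659 value columns were not used. All 24144 rows with a value came out as whole reads (100% within 0.01 read), which gave the depths. Samples of 1 ZT are 1 animal by the labels, so the replicate block was the animal: SCN deviations correlated with those of the same animal's nuclei by 0.127 to 0.519 (12 of 12 over 0.1). For 10 of 12 SCN libraries the best correlation was with their own animal, and for those of ZT10 (0.127) and ZT20 (0.413) it was not.

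Genes with a mean of at least 1 FPKM were tested with limma 3.58.1 in R 4.3.3 on log2(FPKM + 0.5), which understates changes of low genes, with Benjamini-Hochberg adjustment at 0.05: the SCN minus the mean log2 value of the 6 nuclei, ZT0 to ZT10 against ZT12 to ZT22, the difference of both, and a 24 h cosine. The variance trend over mean level replaced one over mean difference after results had been seen. Exact tests used 4096 sign patterns or 924 splits. Members and gene lists were chosen with earlier results of these data known. Named genes are the list members, the 15 largest differences in each direction against the 6 nuclei and the 10 smallest p in each direction for time; other names are marked. Rows sharing a symbol (16091 symbols were unique) were not named. Alternatives were other scalings, filters, pseudocounts, references and covariates, single animals left out, no replicate block, and voom on the recovered reads. The scripts were tested on simulated data. Antisense overlap was not examined. A few genes are not reported here.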

Additional observations from a re-analysis of the deposited data

Results flagged for a closer look

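Among 70 sets of 6 SCN libraries (35 marker, peptide and clock genes by phase), 7 had 1 library far from the others by Dixon's ratio, where chance gives about 1 in 20. In 5 of them the ZT14 library was the low one of ZT12 to ZT22: AVP (2.774 FPKM), SST (46.1 FPKM), PENK (7.817 FPKM), TAC1 (21.5 FPKM) and CARTPT (23.6 FPKM), all peptides. That library also held the pituitary genes and the lowest neuron sum given above, and what this has to do with the peptides was not tested. The others were BHLHE41 at ZT20 (5.928 FPKM) and CSNK1D at ZT4 (18.39 FPKM).

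The phase difference (ZT0 to ZT10 minus ZT12 to ZT22) was larger in the SCN than in the same animals' 6 nuclei, by limma on the difference itself, for HOPX (by 2.327 log2 units), FLYWCH2 (1.612), BTBD2 (1.386), CPLX2 (1.908), FSCN1 (1.393), RPS28 (1.456), NDUFS8 (1.24), NME4 (1.555), PLEKHB1 (1.234) and CRIP2 (1.047), and more negative for PPP2R3C (-0.656). RPS28 has near-identical copies, so its counts are uncertain. None of the 11 passed against PVN and DMH. For FLYWCH2 (-0.299), RPS28 (-0.465), NDUFS8 (-0.068) and CRIP2 (-0.455) the phase difference was smaller in the SCN than in PVN and DMH. It was larger for HOPX (1.048), CPLX2 (0.54), NME4 (0.328), FSCN1 (0.209), PLEKHB1 (0.109) and BTBD2 (0.103). PPP2R3C stayed more negative (-0.511).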

How the results depend on the processing

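Against the 6 nuclei the count of genes (8045) fell to 1221 with PVN alone, 1790 with DMH alone, 1110 with the preoptic area alone and 334 with PVN and DMH as reference, and ran from 7538 to 8271 without single animals; with no replicate block it was 6854 and with voom on the recovered reads 6899. Quantile scaling moved the all-gene median to 0.154 (from -0.057) and the higher share of calls to 61.9% (from 42.3%). Against PVN and DMH (334) the counts were 221 with a filter at 5 FPKM, 209 with none, 188 without variance moderation, 217 with the trend over the mean difference, 54 with no replicate block, 96 with the oligodendrocyte covariate, 222 without ZT14 and ZT20, and 97 (without ZT12) to 485 (without ZT10) without single animals. Between the phases (2243) they were 1478 with a filter at 5 FPKM, 477 with the oligodendrocyte level and 4124 with a shared library component as covariate, 0 with the phases shifted by 2 h, and 1475 (without ZT0) to 2842; quantile scaling moved the share higher at ZT0 to ZT10 to 59.2% (from 90.7%) and the all-gene median to -0.069 (from 0.135). For the difference of phase differences (80) they were 46 with a pseudocount of 0.1, 125 with a filter at 5 FPKM, 16 with none, 21 with quantile and 33 with median-of-ratios scaling, 129 without columns named approx, 29 with the trend over the mean difference, 0 against PVN and DMH, 1207 against the other 4, and 10 (without ZT8) to 133 (without ZT20). For the 24 h curve (1) they were 3 with a pseudocount of 1 or a filter at 5 FPKM, 4 with quantile and 7 with median-of-ratios scaling, 2 without ZT14 and ZT20, and 0 to 116 (without ZT22). Among single named genes 2 results reversed, SIX3 (-0.515) and AVP (-1.227), against the log2 of the nuclei's mean FPKM; 5154 values kept direction and side, 300 lost and 71 gained the call. The cause of these shifts was not tested. A minimum read number removed no library. The alternatives on PVN and DMH, ZT14 and ZT20, the variance trend and the component were chosen after seeing the data. Depth limits genes near 1 FPKM.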

Other observations

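The genes in these paragraphs were chosen after their values were seen. The zinc finger genes ZIC1, ZIC2 and ZIC5 were higher than in PVN and DMH in limma. ZIC1 had 0.0649, 10.5 and 23.2 FPKM as the lowest, median and highest value in the SCN and 0.202, 1.43 and 5.45 FPKM in PVN and DMH, and 8 SCN libraries lay above that range. It was higher by 2.20 ± 0.32 log2 units (limma adjusted p = 0.00383), ZIC2 by 1.85 ± 0.25 (adjusted p = 0.00279) and ZIC5 by 1.91 ± 0.28 (adjusted p = 0.00369). Against the preoptic area ZIC1, ZIC2 and ZIC5 did not pass (limma adjusted p = 0.976, 0.734 and 0.158). ZIC1 and ZIC2 also differed between phases without overlap: ZIC1 averaged 18.6 ± 3.12 FPKM at ZT0 to ZT10 and 4.18 ± 2.06 FPKM at ZT12 to ZT22 (SD, n = 6 each; limma adjusted p = 0.00596), and ZIC2 averaged 7.86 ± 2.21 FPKM at ZT0 to ZT10 and 1.41 ± 0.818 FPKM at ZT12 to ZT22 (adjusted p = 0.0015), whereas ZIC4 and ZIC5 did not pass (adjusted p = 0.578 and 0.642). Time of day and animal cannot be told apart here.

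EOMES, a T-box factor of forebrain neurons, had 0, 1.73 and 4.26 FPKM in the SCN and 0, 0.159 and 1.44 FPKM in PVN and DMH and was higher by 1.42 ± 0.23 (limma adjusted p = 0.00721). OTX1, a factor of the fore- and midbrain, had 0, 0.147 and 0.277 FPKM in the SCN and 0.162, 3.08 and 11.0 FPKM in PVN and DMH and was lower by -2.48 ± 0.23 (limma adjusted p = 1.5e-04; 12 of 12 animals). EOMES and OTX1 did not pass against the preoptic area (adjusted p = 0.151 and 0.162). Of 10 membrane channel genes, KCNK2, a background potassium channel, and CACNA1G, a T-type calcium channel, were higher than in PVN and DMH by 0.79 ± 0.11 and 0.55 ± 0.13 (limma adjusted p = 0.00291 and 0.0475; CACNA1G 0.0702 without ZT14), and of 10 GABA-A receptor subunits GABRA5 was lower by -0.75 ± 0.14 (adjusted p = 0.0143), while against the 6 nuclei 6 were higher and 1 lower. Of 12 immediate early genes 2 were higher than in PVN and DMH, JUN and RASD1, and against the 6 nuclei 0 were higher and 6 lower in limma (8 lower without ZT14). Over all genes, 1.63% were higher and 0.834% lower than in PVN and DMH, and 25.1% and 34.3% than in the 6 nuclei. RASD1, a small GTPase that modulates SCN light responses in mice, had 11.2, 13.0 and 32.2 FPKM at ZT0 to ZT10 and 1.90, 3.80 and 9.69 FPKM at ZT12 to ZT22, without overlap (limma adjusted p = 0.004).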
